A study of Mus musculus with 6 samples.

Results

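The genes of glycolysis and of the response to low oxygen were examined in mouse Neuro2A cells, a neuroblastoma line, after an siRNA against circCpsf6. They comprised 38 genes chosen by name: glucose transporters, glycolytic enzymes, lactate transporters, pyruvate dehydrogenase kinases, the alpha subunits of hypoxia-inducible factor (HIF), their hydroxylases and other HIF-induced genes. The deposited table held 39 rows for these 38 symbols among 55385 rows, because Aldoa was listed at a second locus. Of the 39 rows, 33 reached a mean of 1 FPKM over the 6 libraries and were tested, and 6 did not (Ldhb, Pdk1, Pdk3, Epas1, Egln3 and Car9). An FPKM value is a fragment count divided by transcript length and library size. The tested libraries came from cells given 100 nM of si-circCpsf6 (n = 3), an siRNA directed at a circular RNA of the Cpsf6 gene. They were set against cells given 100 nM of the comparison siRNA labelled si-NC (n = 3). All 6 libraries came from the same line grown in serum, with no genetic change and no low-oxygen treatment named in the labels. Whether the replicates of a group were grown as separate cultures is not labelled; the p-values reflect library-to-library spread, possibly only technical.

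Glycolysis breaks glucose down to pyruvate in the cytosol, first spending and then yielding ATP, and many of its enzymes exist as isoforms encoded by separate genes. Lactate dehydrogenase turns pyruvate into lactate, which leaves the cell through monocarboxylate transporters. HIF is a transcription factor whose alpha subunit is hydroxylated and destroyed when oxygen is plentiful. When oxygen is scarce the subunit accumulates, pairs with Arnt and raises many glycolytic genes together with genes for mitophagy, collagen modification and pH control. Hif1a itself is controlled mostly at the level of its protein, which was not measured here.

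A short sequence to which HIF responds was counted in the promoters of members. Many members were named as HIF targets, so its frequency among them is not independent of that choice. The core of the hypoxia response element is written ACGTG or GCGTG, and both forms, on both strands, were looked for in RefSeq promoter windows of 250 bases before to 50 bases after each start (GRCm38.p6). The search matched 34 of the 38 symbols with 49 windows; Ndrg1, Slc2a3, Bnip3l and Epas1 had none in the table. ACGTG stood in 28 of the 49 member windows (57.1%), against 19.6% of all 32851 windows and 25.8% of the windows of tested genes. By gene, it was held by 25 of 34 members (73.5%), against 29.7% of tested genes with a window. The HIF targets outside the glycolytic chain held it in 8 of 10 genes (80.0%), and the glycolytic enzymes and transporters in 13 of 20 (65.0%). Member windows had a median GC content of 63.3%, and windows of tested genes 61.0%. The other form, GCGTG, stood in 57.1% of member windows and in 51.4% of the windows of tested genes. The E-box CACGTG, which holds ACGTG on both strands, was present in 8 of the 49 member windows and in 1145 of the 11308 windows of tested genes. A match describes the letters only and does not show that a factor binds there. The 250 bases before the RefSeq start are printed for 3 members whose values are described below and whose windows hold the motif: the glycolytic enzyme Pgam1, the glucose transporter Slc2a1 and the HIF target Ankrd37. Capitals mark ACGTG, and sequences read 5′ to 3′ on the strand of the gene.
Pgam1, chr19:41911621-41911870, plus strand: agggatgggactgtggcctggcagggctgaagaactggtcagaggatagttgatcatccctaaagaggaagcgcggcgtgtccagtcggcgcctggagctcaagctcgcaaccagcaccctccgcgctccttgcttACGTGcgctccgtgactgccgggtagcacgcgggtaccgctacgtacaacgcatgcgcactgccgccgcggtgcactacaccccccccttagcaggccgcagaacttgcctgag
Slc2a1, chr4:119108495-119108744, plus strand: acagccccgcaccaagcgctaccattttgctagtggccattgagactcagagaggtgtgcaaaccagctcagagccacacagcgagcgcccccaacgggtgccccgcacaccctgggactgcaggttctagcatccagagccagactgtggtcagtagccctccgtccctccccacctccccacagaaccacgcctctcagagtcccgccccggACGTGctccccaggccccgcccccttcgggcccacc
Ankrd37, chr8:45999851-46000100, minus strand: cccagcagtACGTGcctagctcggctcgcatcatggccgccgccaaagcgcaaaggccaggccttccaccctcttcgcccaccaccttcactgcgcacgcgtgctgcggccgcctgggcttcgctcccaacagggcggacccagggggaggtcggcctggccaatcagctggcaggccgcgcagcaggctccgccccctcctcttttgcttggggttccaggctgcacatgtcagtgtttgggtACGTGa
The motif began 114 bases before the RefSeq start in Pgam1, 36 before it in Slc2a1, and 241 and 6 before it in Ankrd37. RefSeq and GENCODE place these starts differently: the RefSeq start of Pgam1 lies upstream of the GENCODE start, the end of the Slc2a1 stretch lies inside the GENCODE gene, and so does the whole Ankrd37 stretch with both of its motifs. These 3 genes did not share a direction between the groups, as their values below show.

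Across all 12974 tested genes, 117 (0.902%) were higher and 102 (0.786%) lower in si-circCpsf6 at a Benjamini-Hochberg adjusted p under 0.05 in limma on log2(FPKM + 1). None of the 33 member rows passed in either direction, and the smallest adjusted p among them was 0.0997, for Pfkp. At an unadjusted p under 0.05 there were 7 member rows (21.2%), near the 20.3% of all tested genes. Of these 7, Pfkp, Slc2a1, Gapdh and Ndrg1 had higher values in si-circCpsf6, and Pgam1, Pfkfb4 and Ankrd37 lower ones. Ankrd37 averaged 0.62 FPKM in si-circCpsf6 and Ndrg1 0.97 FPKM in si-NC. Both therefore reached the mean of 1 FPKM only through the group in which they were higher. The groups did not overlap in 4 member rows (12.1%), against 26.9% of all tested genes. Fold changes, given throughout on the log2(FPKM + 1) scale as si-circCpsf6 over si-NC, were above 0 in 15 member rows and below 0 in 18. Glycolytic enzymes and transporters had 10 of 21 tested rows above 0 and a median of -0.01, beside a median of -0.02 over all tested genes. HIF targets outside the chain had 3 of 9 above 0 and a median of -0.20, which was -0.11 without si-NC replicate 1. Throughout, that list was Pdk1, Pfkfb3, Pfkfb4, Bnip3, Bnip3l, Ankrd37, Egln1, Egln3, P4ha1, P4ha2, Ndrg1 and Car9. Slc16a3, also a HIF target, was counted with the glycolytic enzymes and transporters. The 2 medians were not tested against each other, and both lists held fold changes of either sign.

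**Figure D1:**
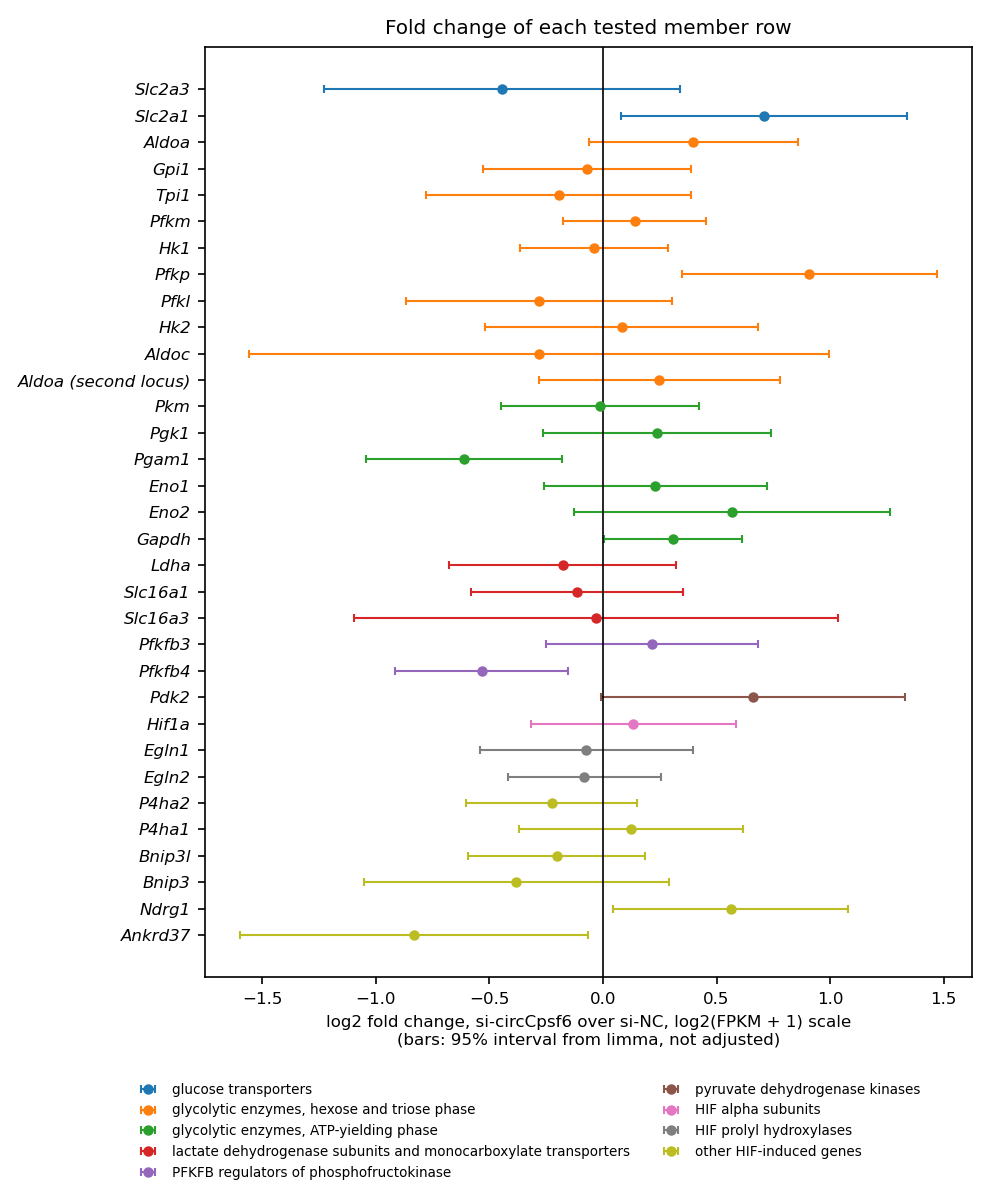
Log2 fold change of each of the 33 tested member rows, si-circCpsf6 over si-NC on the log2(FPKM + 1) scale (points), with unadjusted 95% intervals from limma (bars), coloured by role. Pfkp at 0.91 is the highest point and Ankrd37 at -0.83 the lowest; 7 intervals do not cross 0, and none of the rows passed after adjustment.

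Levels set the frame for what follows. Over all libraries the order by mean was led by Aldoa (188 FPKM), Ldha (185), Pkm (162) and Pgk1 (114), followed by Gpi1 (90.2) and Pgam1 (89.7). Aldoa and Ldha, and likewise Gpi1 and Pgam1, lay closer together than the spread between their libraries. This order takes single rows and leaves out the sequence copies described below. With copies, Gapdh averaged 914 FPKM in si-circCpsf6 and 820.5 FPKM in si-NC, above the Aldoa row. Eno1 with copies averaged 333 FPKM in si-circCpsf6 and 302 FPKM in si-NC, also above it. Such sums depend on how reads matching several copies were assigned, which is not known here. Tested HIF targets outside the chain ran from Egln1 (28.9 FPKM) down to Ankrd37 (1.34 FPKM). Ldhb, the heart-type lactate dehydrogenase subunit, was listed at 0 in every library, while Ldha was among the highest members.

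**Figure D2:**
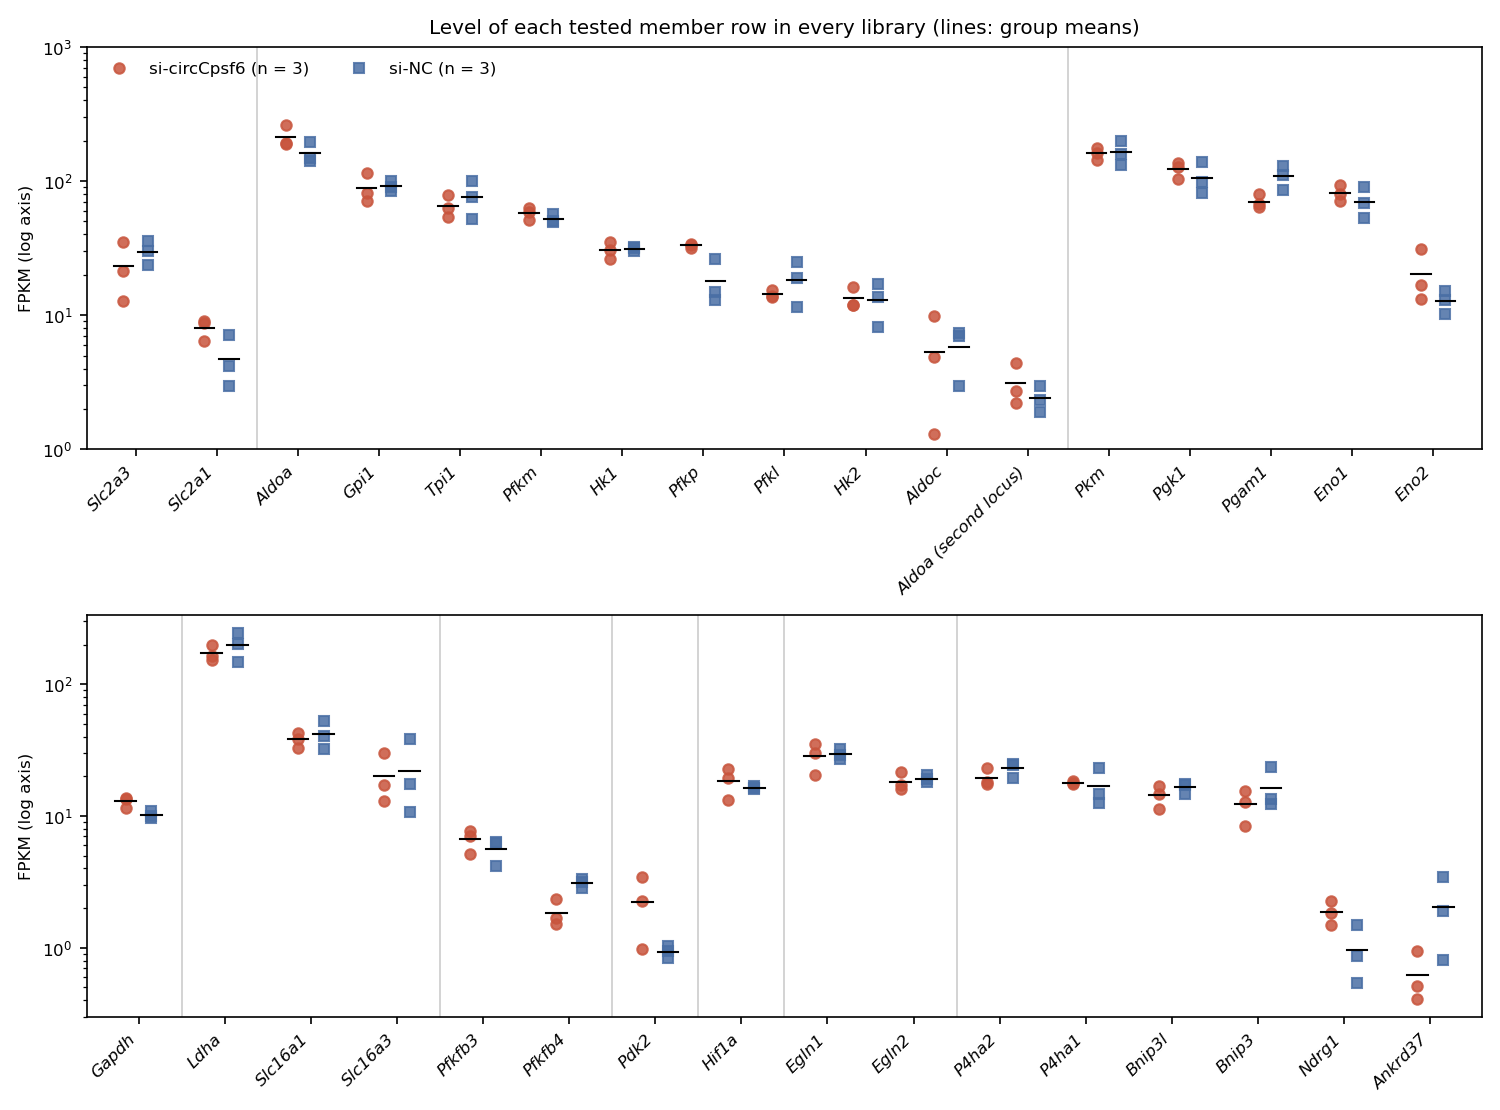
FPKM on a log axis for the 33 tested member rows, si-circCpsf6 (circles, n = 3) left of si-NC (squares, n = 3), with lines at group means and grey lines between roles. Pfkp stands at 31.7 to 34.1 FPKM in si-circCpsf6 and 12.9 to 26.2 FPKM in si-NC, while for most members the groups overlap.

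Glucose enters through the facilitative transporters Slc2a1 (GLUT1) and Slc2a3 (GLUT3). Slc2a1 (ENSMUSG00000028645, chromosome 4, 119108711 to 119137983, GRCm38) was at 9.06, 8.76 and 6.39 FPKM in si-circCpsf6, against 7.15, 2.96 and 4.15 FPKM in si-NC. Replicate 1 of si-NC lay above the lowest si-circCpsf6 library, so the groups overlapped. The log2 fold change was 0.71 ± 0.27 (SE), which did not pass (limma adjusted p = 0.200). Slc2a3, the more abundant transporter, was at 35.3, 21.3 and 12.7 FPKM in si-circCpsf6 and 35.5, 23.5 and 30.3 FPKM in si-NC. Its si-circCpsf6 libraries spread 2.77-fold, and its log2 fold change was -0.44 ± 0.34 (adjusted p = 0.507), or -0.80 without si-circCpsf6 replicate 1 and -0.09 without its replicate 3.

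The early enzymes trap glucose as a phosphate and split it into trioses. Hk1 and Hk2, the hexokinases of the first step, averaged 30.6 ± 4.4 and 13.3 ± 2.5 FPKM in si-circCpsf6 and 31.2 ± 0.98 and 12.9 ± 4.5 FPKM in si-NC (SD, n = 3 each). Gpi1, the isomerase of the next step, averaged 88.9 ± 23 FPKM in si-circCpsf6 and 91.6 ± 8.0 FPKM in si-NC. Differences of this size lay within the spread of the libraries. Phosphofructokinase, the committed step, is built from the muscle (Pfkm), liver (Pfkl) and platelet (Pfkp) subunits. Pfkp (ENSMUSG00000021196, chromosome 13, 6579768 to 6648777) was at 33.7, 31.7 and 34.1 FPKM in si-circCpsf6, against 26.2, 12.9 and 14.9 FPKM in si-NC. All 3 si-circCpsf6 libraries stood above all 3 si-NC libraries, of which replicate 1 was nearest to them. The log2 fold change was 0.91 ± 0.24, a ratio of means of 1.84, and missed the threshold (limma adjusted p = 0.0997). Pfkm averaged 57.5 ± 6.0 FPKM in si-circCpsf6 and 52.1 ± 3.9 FPKM in si-NC, and Pfkl averaged 14.3 ± 0.87 FPKM in si-circCpsf6 and 18.4 ± 6.7 FPKM in si-NC. Pitrm1, a mitochondrial protease gene that overlaps Pfkp on the opposite strand, was at 28.8, 31.9 and 30.3 FPKM in si-circCpsf6 and 31.3, 29.3 and 26.5 FPKM in si-NC. Its levels overlapped between the groups, but no source used here says how strand was treated, so reads of the 2 genes cannot be told apart where they overlap.

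Aldolase splits the sugar, and triose phosphate isomerase (Tpi1) interconverts the products. Aldoa was at 261, 191 and 189 FPKM in si-circCpsf6, against 197, 141 and 148 FPKM in si-NC. Si-NC replicate 1 lay above the lower si-circCpsf6 libraries, and the log2 fold change of 0.40 ± 0.20 did not pass (limma adjusted p = 0.312). Fam57b, on the opposite strand across the Aldoa loci, was at 14.2, 16.9 and 11.2 FPKM in si-circCpsf6 and 10.6, 8.18 and 7.47 FPKM in si-NC. Every si-circCpsf6 value of Fam57b was above every si-NC value, the direction of both Aldoa fold changes. As with Pitrm1 and Pfkp, reads of Fam57b and Aldoa cannot be told apart where they overlap. The second Aldoa locus (chromosome 7, 126800790 to 126809108) averaged 3.12 ± 1.1 FPKM in si-circCpsf6 and 2.42 ± 0.54 FPKM in si-NC. It lay below Fam57b in every library. Aldoc, the brain-type isoform, varied 7.56-fold within si-circCpsf6 (9.90, 1.31 and 4.88 FPKM) and was at 7.36, 2.99 and 6.96 FPKM in si-NC. Tpi1 averaged 65.1 ± 13 FPKM in si-circCpsf6 and 76.3 ± 24 FPKM in si-NC.

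In the later steps, Gapdh oxidises the triose, Pgk1 and Pkm make ATP, Pgam1 moves the phosphate and the enolases remove water. Pgam1 (ENSMUSG00000011752, chromosome 19, 41911923 to 41918660) was at 63.6, 67.6 and 79.8 FPKM in si-circCpsf6, against 129.9, 85.3 and 112 FPKM in si-NC. The groups did not overlap, although the highest si-circCpsf6 library and si-NC replicate 2 were close. The log2 fold change was -0.61 ± 0.19 and did not pass (limma adjusted p = 0.130). Gapdh (ENSMUSG00000057666, chromosome 6, 125161715 to 125166467) was at 13.8, 13.5 and 11.4 FPKM in si-circCpsf6, against 9.69, 9.94 and 11.0 FPKM in si-NC. All si-circCpsf6 libraries were above all si-NC libraries by a narrow margin, with a log2 fold change of 0.31 ± 0.13 (adjusted p = 0.238). That row held little of the FPKM listed for Gapdh and its sequence copies together, as described below. Pkm, pyruvate kinase, was at 177, 143 and 163 FPKM in si-circCpsf6 and 201, 131 and 160.4 FPKM in si-NC. These ranges overlapped almost wholly, and the log2 fold change was -0.01 ± 0.19 (adjusted p = 0.979). Pgk1 averaged 122 ± 16 FPKM in si-circCpsf6 and 106 ± 29 FPKM in si-NC, and Eno1 averaged 81.3 ± 11 FPKM in si-circCpsf6 and 70.3 ± 18 FPKM in si-NC. Eno2, the neuronal enolase, was at 31.1, 16.9 and 13.3 FPKM in si-circCpsf6 and 15.2, 12.9 and 10.2 FPKM in si-NC. Its first si-circCpsf6 library was far above the rest, the groups overlapped, and the log2 fold change of 0.57 ± 0.30 did not pass (adjusted p = 0.337). It was 0.23 without that library.

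Lactate production and export gave no member past the test either. Ldha was at 165, 153 and 200.1 FPKM in si-circCpsf6, against 245, 147 and 202 FPKM in si-NC. The log2 fold change was -0.18 ± 0.21 (limma adjusted p = 0.692), and si-NC alone spanned the whole range. The exporters Slc16a1 (MCT1) and Slc16a3 (MCT4, itself a HIF target) averaged 38.1 ± 5.2 and 20.2 ± 8.9 FPKM in si-circCpsf6 and 41.9 ± 10.4 and 22.2 ± 14 FPKM in si-NC. Slc16a3 differed 3.58-fold among the si-NC libraries and 2.30-fold among the si-circCpsf6 libraries, with a log2 fold change of -0.03 ± 0.46.

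PFKFB enzymes make or remove the sugar bisphosphate that activates phosphofructokinase. Pfkfb4 (ENSMUSG00000025648, chromosome 9, 108991778 to 109032228) was at 1.69, 2.34 and 1.51 FPKM in si-circCpsf6, against 3.30, 2.84 and 3.14 FPKM in si-NC. Every si-circCpsf6 library was below every si-NC library. The log2 fold change of -0.53 ± 0.16 did not pass (limma adjusted p = 0.133). Pfkfb3 was at 7.71, 5.15 and 7.06 FPKM in si-circCpsf6 and 6.19, 4.17 and 6.41 FPKM in si-NC, which overlapped (log2 fold change 0.22 ± 0.20).

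Pyruvate dehydrogenase kinases hold pyruvate back from the mitochondrial dehydrogenase complex, and their genes had low levels in these cells. Pdk2 was at 3.43, 0.98 and 2.25 FPKM in si-circCpsf6 and 0.94, 1.03 and 0.83 FPKM in si-NC. With a si-NC mean of 0.93 FPKM, it reached the mean of 1 FPKM only through si-circCpsf6. Replicate 2 of si-circCpsf6 lay among the si-NC values, and the log2 fold change was 0.66 ± 0.29 (limma adjusted p = 0.250), or 0.39 without si-circCpsf6 replicate 1. Pdk1, a HIF target, was at 0.20, 0.12 and 0.32 FPKM in si-circCpsf6 and 1.34, 0.31 and 0.29 FPKM in si-NC, so that its higher si-NC mean came from replicate 1. Pdk3 stood at 0.02 to 0.03 FPKM in si-circCpsf6 and was listed at 0 in si-NC. In the authors' deposited table, Pdk1 (log2 fold change -1.59, q = 0.14), Ankrd37 (-1.72, q = 0.09) and Pdk2 (1.25, q = 0.12) were the 3 members marked significant, a mark carried by 954 of 55385 rows (1.72%). Marked rows in the authors' deposited table all had a log2 fold change of size 1 or more and p of at most 0.05, limits that 981 rows met. By the q-value in the authors' deposited table, Pfkp alone among members was at or under 0.05 (log2 fold change 0.88, q = 0.02), and it was not marked.

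Of the HIF alpha subunits, Hif1a was expressed and Epas1 (HIF-2 alpha) was close to 0. Hif1a was at 13.2, 22.8 and 19.6 FPKM in si-circCpsf6 and 16.0, 16.3 and 17.0 FPKM in si-NC. The si-NC libraries lay inside the si-circCpsf6 range, with a log2 fold change of 0.13 ± 0.19 (limma adjusted p = 0.747). Epas1 was at 0.04, 0 and 0.03 FPKM in si-circCpsf6 and 0.17, 0.02 and 0.05 FPKM in si-NC. The prolyl hydroxylases that mark the alpha subunits for destruction were led by Egln1 (PHD2), at 20.4, 34.9 and 29.9 FPKM in si-circCpsf6 and 32.3, 26.9 and 28.9 FPKM in si-NC. Its groups overlapped, and replicate 1 of si-circCpsf6 was lowest, as it was for Hif1a. That library was also the lowest in 29.1% of all tested genes. Egln2 averaged 18.3 ± 2.8 FPKM in si-circCpsf6 and 19.3 ± 1.3 FPKM in si-NC. Egln3 (PHD3), which HIF itself induces in many cells, stayed between 0 and 0.28 FPKM in all libraries.

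Among the other HIF-induced genes, the fold changes of largest size belonged to the low-abundance members Ankrd37 and Ndrg1. Ankrd37 (ENSMUSG00000050914, chromosome 8, 45996902 to 46005707), an ankyrin-repeat protein gene, was at 0.51, 0.41 and 0.95 FPKM in si-circCpsf6, against 3.47, 0.81 and 1.89 FPKM in si-NC. Replicate 2 of si-NC was below the highest si-circCpsf6 library. The log2 fold change was -0.83 ± 0.33 (limma adjusted p = 0.213), and -0.51 without si-NC replicate 1. Ufsp2, a protease gene overlapping Ankrd37 on the opposite strand, was at 10.1 to 13.0 FPKM in all libraries, well above Ankrd37. Ndrg1, a stress-responsive gene, was at 1.50, 2.27 and 1.83 FPKM in si-circCpsf6 and 1.50, 0.87 and 0.54 FPKM in si-NC. The lowest si-circCpsf6 library equalled the highest si-NC library, and the log2 fold change was 0.56 ± 0.22 (adjusted p = 0.214), opposite in sign to that of Ankrd37. The mitophagy receptors Bnip3 and Bnip3l averaged 12.3 ± 3.6 and 14.3 ± 2.8 FPKM in si-circCpsf6 and 16.5 ± 6.2 and 16.5 ± 1.5 FPKM in si-NC. P4ha1 and P4ha2 encode alpha subunits of the collagen prolyl hydroxylase. P4ha2, the most abundant of these genes, was at 18.0, 23.3 and 17.4 FPKM in si-circCpsf6 and 24.8, 24.6 and 19.6 FPKM in si-NC (log2 fold change -0.23 ± 0.16). P4ha1 averaged 17.9 ± 0.51 FPKM in si-circCpsf6 and 16.9 ± 5.6 FPKM in si-NC. The groups overlapped in Bnip3, Bnip3l, P4ha1 and P4ha2. Car9, the carbonic anhydrase often read as a marker of hypoxia, was at 0.11 to 0.39 FPKM in si-circCpsf6 and 0.11 to 0.48 FPKM in si-NC.

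The spread of the members was larger in si-NC than that of genes at large. The median range among the 3 si-NC libraries was 0.60 on the log2(FPKM + 1) scale for tested members and 0.32 for all tested genes, whereas among the 3 si-circCpsf6 libraries it was 0.42 for both. Replicate 1 of si-NC was the highest of all 6 libraries in 15 of the 33 member rows, against 15.8% of all tested genes. Replicate 2 of si-NC was the lowest in 13 of the 33, and in 12 of the 21 glycolytic rows, against 14.9% of all tested genes. The same ordering held in the summed level of the 17 glycolytic enzyme and lactate dehydrogenase genes, which took 0.371%, 0.314% and 0.358% of summed FPKM in si-circCpsf6 and 0.406%, 0.262% and 0.312% in si-NC. With the sequence copies described below added, the shares were 0.71%, 0.67% and 0.73% in si-circCpsf6 and 0.79%, 0.51% and 0.61% in si-NC. Si-NC thus held both the highest and the lowest library in either sum. The range within si-NC exceeded the size of the fold change in 27 of the 33 member rows, a larger share than the 64.4% of all tested genes. The range within si-circCpsf6 exceeded it in 24 of the 33, against 74.3% of all tested genes. Leaving out single libraries of either group moved the median fold change of the glycolytic rows: it was 0.22 without si-circCpsf6 replicate 2, 0.14 when si-NC replicate 1 was left out and -0.12 when its replicate 2 was. Si-NC replicate 1 did not stand at an end of the range in summed FPKM (341087) or in genes at 1 FPKM (12895). It did in other measures over all tested genes. Its median deviation from the gene means was 0.022 on the log2(FPKM + 1) scale, the highest of the 6 libraries. It was the lowest library in 10.7% of all tested genes, the smallest such share.

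**Figure D3:**
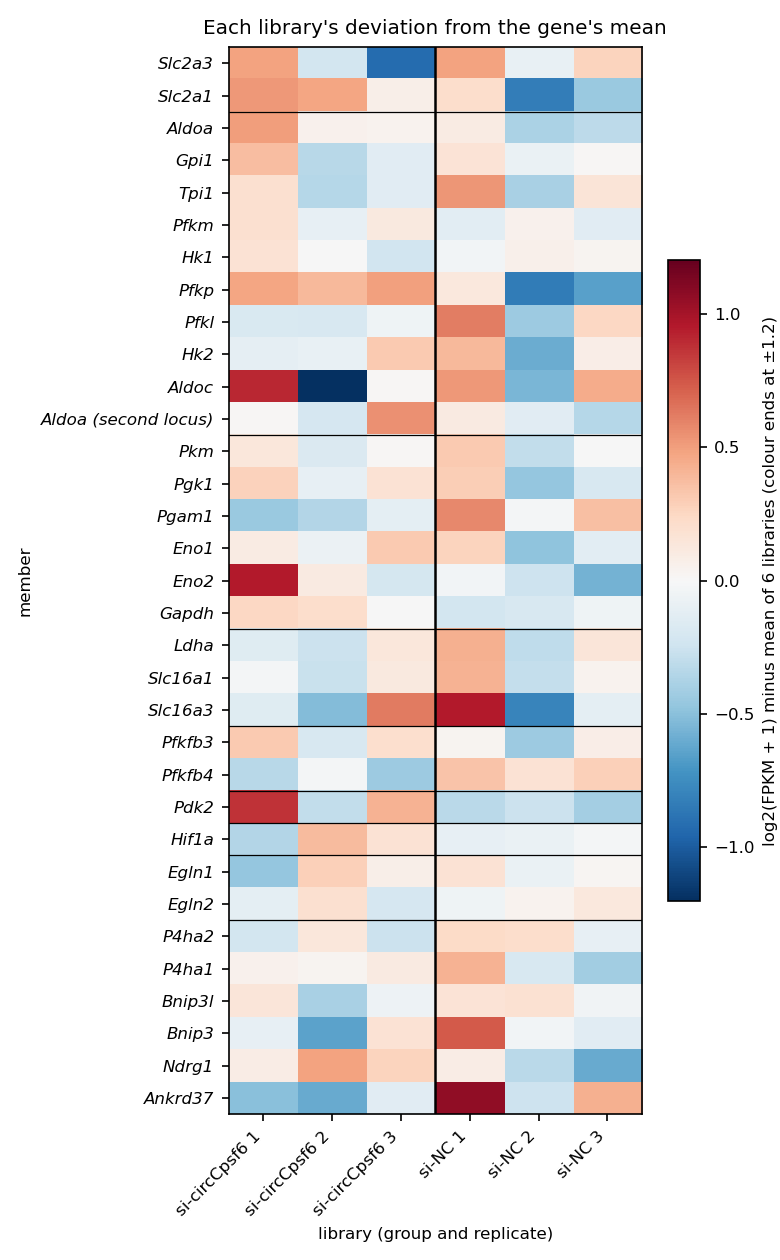
Deviation of each library from the gene's mean over the 6 libraries, in log2(FPKM + 1), for the 33 tested member rows (rows, ordered by role) with si-circCpsf6 left of si-NC. The column of si-NC replicate 1 is mostly red and that of si-NC replicate 2 mostly blue through the glycolytic rows.

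Several glycolytic genes have near-identical copies elsewhere in the genome with FPKM rows of their own, and how reads that match more than a single copy were assigned is not known here. A copy was another annotated gene with a transcript of which at least 50% of the 31-base words also occurred in transcripts of the member. Gapdh had 43, all with some signal, and they carried 98.5% to 99.0% of the summed FPKM of Gapdh and its copies. Gapdh with its copies summed to 922, 928 and 894 FPKM in si-circCpsf6 and 941, 701 and 820 FPKM in si-NC. These sums overlapped, so the narrow separation seen in the Gapdh row was not present in them. Single copies also differed in level between libraries. The processed pseudogene Gm10359 was at 14.6, 9.71 and 15.9 FPKM in si-circCpsf6, against 1.10, 10.9 and 13.6 FPKM in si-NC. Eno1 shared its sequence with Gm4735 and Eno1b, which held 74.8% to 78.2% of the joint FPKM. With them it summed to 318, 290 and 391 FPKM in si-circCpsf6 and 411, 212 and 283 FPKM in si-NC, which overlapped. For Pgam1 the pseudogene Pgam1-ps2 held 21.3% to 26.6%, and the sums of 85.4, 86.0 and 105 FPKM in si-circCpsf6 and 177, 111 and 144 FPKM in si-NC remained apart. Levels of Gapdh and Eno1 as single rows are therefore uncertain. So are the sums with copies, because a read that matches several copies may have been counted more than once.

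**Figure D4:**
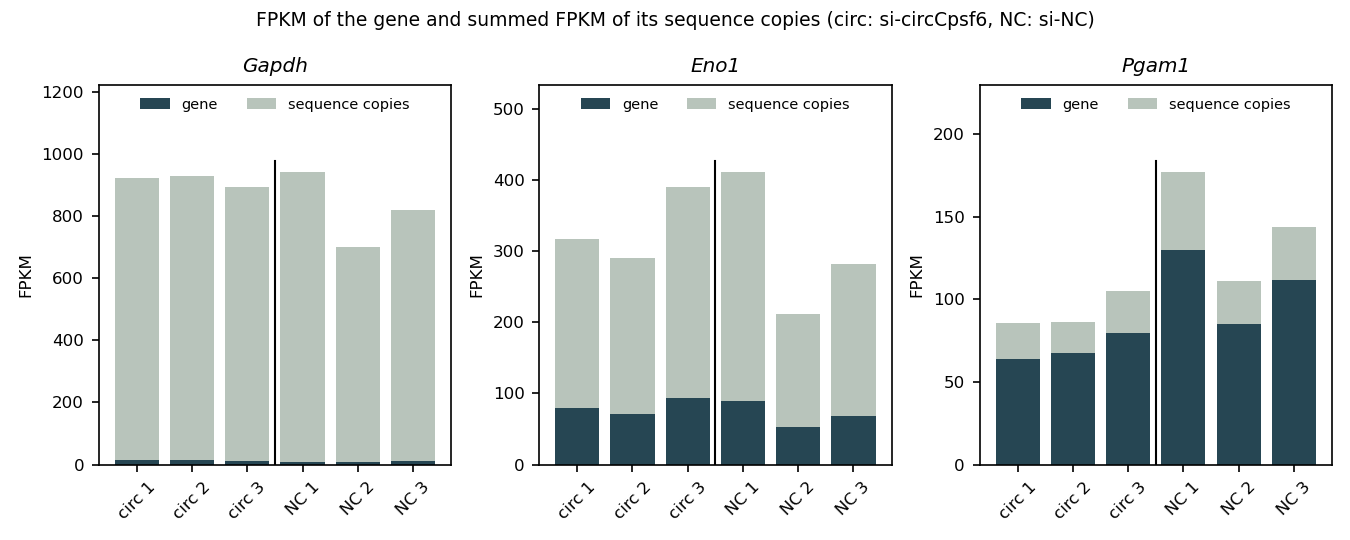
FPKM of Gapdh, Eno1 and Pgam1 (dark) and of their sequence copies (pale) stacked for each library, si-circCpsf6 (circ) left of si-NC (NC). The Gapdh gene is a thin band under copies that hold at least 98.5% of the sum, and only the Pgam1 bars stay apart between the groups.

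Because FPKM are per length, isoforms of an enzyme could be set side by side within a library. Each family was limited to its member genes. The enolase sum thus left out Eno1b (mean of 102 FPKM over all libraries) and Eno3 (11.3 FPKM). Shares of Eno2 depend on that limit and on the uncertain Eno1 row. Pfkp made up 30.6%, 32.9% and 31.5% of the summed phosphofructokinase FPKM in si-circCpsf6, against 25.9%, 16.0% and 17.9% in si-NC. Those shares did not overlap, and Pfkm was the main isoform throughout. Slc2a1 made up 20.4%, 29.1% and 33.4% of the summed Slc2a1 and Slc2a3 FPKM in si-circCpsf6, against 16.8%, 11.2% and 12.1% in si-NC. All 3 si-circCpsf6 libraries were above all si-NC libraries in that share, although the Slc2a1 levels overlapped. Pdk1 made up 5.48%, 10.7% and 12.3% of the low Pdk signal in si-circCpsf6 and 58.8%, 23.1% and 25.9% in si-NC. Shares of Hk2, Eno2, Aldoc, Slc16a3 and Egln1 overlapped between the groups. The shares are a description and were not tested.

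**Figure D5:**
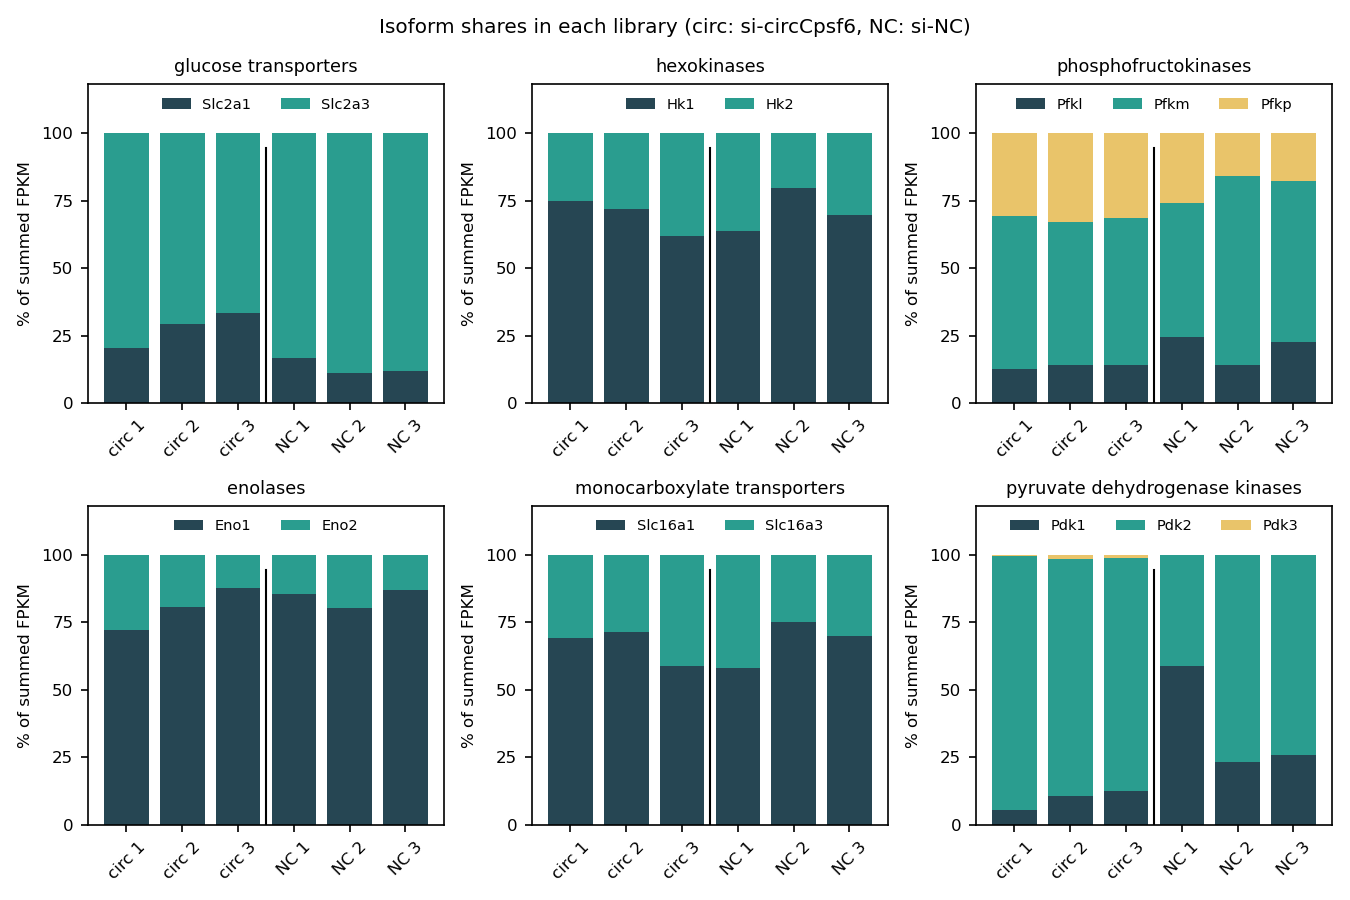
Share of each isoform in the summed FPKM of the member genes of its family, in percent, for every library. Si-circCpsf6 (circ) stands left of si-NC (NC). The Pfkp band is 30.6% to 32.9% in si-circCpsf6 and 16.0% to 25.9% in si-NC, and Slc2a1 is 20.4% to 33.4% in si-circCpsf6 and 11.2% to 16.8% in si-NC.

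A heptamer, GCAGAAT, had been picked in an earlier look at 3′ UTRs of these same data, so its presence in members is no independent evidence. It occurred in 4 of the 33 tested member rows (12.1%), namely Slc2a1, Pfkfb4, Bnip3l and P4ha1, against 10.2% of 10630 tested genes with a 3′ UTR of at least 50 bases. Slc2a1 and Pfkfb4, whose fold changes had opposite signs, are shown with the heptamer in capitals (GENCODE M21 transcripts).
Slc2a1: atgtgaaaaggGCAGAATagcatggctgt
Pfkfb4: gcccaaatctgGCAGAATagtccaccttt

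Genes around the members were read from the same fit. Of 29 further HIF-induced genes, 28 were matched and 24 tested, and Pgm1 was the only gene past the test, while none was higher. Pgm1, a phosphoglucomutase that links glycogen to glycolysis, was at 8.05, 5.33 and 6.20 FPKM in si-circCpsf6, against 15.3, 12.7 and 13.5 FPKM in si-NC. It fell by 0.99 ± 0.16 on the log2 scale (limma adjusted p = 0.0368), with no overlap. The list had 15 fold changes above 0 and a median of 0.08. The 9 tested HIF partners and inhibitors had none past the test, a median of -0.04 and, as the smallest p-values, Elob (-0.51 ± 0.13, adjusted p = 0.0922) and Rbx1 (-0.33 ± 0.12, adjusted p = 0.194), subunits of the ligase that marks HIF alpha for destruction. Of 14 tested other isozymes and regulators none passed, with Minpp1, an inositol phosphate phosphatase (-0.76 ± 0.16, adjusted p = 0.0642), first by p. Pyruvate entry into mitochondria had 0 of 11 past the test and a median of -0.02, led by Pcx, pyruvate carboxylase (0.48 ± 0.19, adjusted p = 0.209), and Pdha1, a pyruvate dehydrogenase subunit (0.25 ± 0.12, adjusted p = 0.286). The pentose phosphate pathway, which branches from glucose phosphate, had 0 of 7 and a median of 0.14, led by Taldo1, transaldolase (0.75 ± 0.21, adjusted p = 0.112), and Pgls, a lactonase (-0.37 ± 0.14, adjusted p = 0.201).

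The label of the cells and the depth of the libraries were checked once. Sympathoadrenal neuroblast markers were expressed, 9 of 10 being tested, with summed FPKM of 644 to 694 in si-circCpsf6 and 770.5 to 959 in si-NC. Of these 9, none passed the test, 6 had fold changes below 0 and the median was -0.35. Fibroblast markers summed to 5.53 to 11.6 FPKM in si-circCpsf6 and 2.54 to 10.6 FPKM in si-NC, and of the 2 tested Pdgfrb was called higher (adjusted p = 0.0455) and Col1a1 not. Sums of macrophage, endothelial, astrocyte, Schwann and erythroid markers each stayed under 5 FPKM in every library. Any part of these levels in the member values was not tested. Cpsf6, the host gene, was at 10.7, 15.1 and 14.5 FPKM in si-circCpsf6 and 14.1, 14.5 and 15.2 FPKM in si-NC (log2 fold change -0.13 ± 0.15, limma adjusted p = 0.688). That single value does not separate circular from linear transcripts, and whether circular ones contribute to it is unknown. It therefore does not check the knockdown. Summed FPKM ran from 327555 to 356523 per library, and 12671 to 13080 genes reached 1 FPKM. Read counts could not be recovered (no more than 33.1% of low FPKM fell within 0.1 of a whole number of reads), and the depth behind each value is unknown.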

How the data were processed

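Groups came from the sample titles. The authors' deposited table holds FPKM per gene and library, rounded to 2 decimals, per the file headers. Further columns are the authors' ratio between groups, its log2 value, and the p-value and q-value deposited with them. No source used here names the programs behind FPKM and tests. Bowtie 0.12.2, mm9 and mm8 appear in the submitters' processing notes with no step attached. The labels name a small RNA kit for these mRNA libraries.

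Genes averaging 1 FPKM or more were tested with limma 3.58.1 in R 4.3.3 (trend) on log2(FPKM + 1), with Benjamini-Hochberg adjustment over 12974 genes and a threshold of 0.05. FPKM are not counts, so no count test was run. The scale understates changes of low genes. Members and lists were chosen with earlier results of these data known. All members are named. Values per library are given for those with an unadjusted p under 0.05, the highest of each role, Hif1a and Epas1, and further members where their spread matters. Of each other list, members past the test are named or up to 2 of smallest p. Some items covered by this rule are not reported here.

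Positions, overlaps and copies used GENCODE M21 (GRCm38), which held 55144 of the table's 55385 identifiers. Promoters came from RefSeq. Python 3.11.15 was used with numpy 2.4.6, pandas 2.3.3 and matplotlib 3.10.9. Alternatives were other scalings, pseudocounts, filters and models, the replicate number as a block, the authors' q-values and leaving out each library.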

Additional observations from a re-analysis of the deposited data

How the results depend on the processing

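The count of members past the test was 0 in each direction in every fit made here, and the lowest adjusted p of a member in any of them was 0.0533, for Pfkp without si-NC replicate 1. By the authors' deposited q-values 1 member was higher (Pfkp) and 0 lower. Over all tested genes, 117 higher and 102 lower became 4 and 9 with no filter and 418 and 297 by the authors' deposited q-values at 0.05. Leaving out each library in turn gave 1 to 43 higher and 2 to 44 lower. With the replicate number as a block in the model the counts were 6 and 5 over all genes and 0 and 0 among members. Deviations of same-numbered libraries correlated at 0.10, 0.13 and 0.08. Every library correlated best with its own number, a weak hint from the data and not from the design. Replicate 3 of si-circCpsf6 correlated almost equally with si-NC replicate 3 (0.084) and si-NC replicate 1 (0.078). These correlations are not independent, because deviations within a group sum to 0. Of 457 recomputed member fold changes, 440 kept their direction and side of the threshold, and 22 of 33 member rows kept their direction under all alternatives. Pkm turned to 0.0036 under median centring. Leaving out single libraries, the fold change ranged from -0.14 to 0.068 for Hk1, -0.19 to 0.30 for Hk2, -0.27 to 0.081 for Gpi1, -0.80 to 0.32 for Aldoc, -0.44 to 0.018 for Tpi1, -0.16 to 0.14 for Pkm, -0.28 to 0.064 for Slc16a1, -0.43 to 0.44 for Slc16a3, -0.024 to 0.34 for Hif1a, -0.23 to 0.14 for Egln1 and -0.051 to 0.37 for P4ha1. The causes were not tested. Unknown depth limits what low values such as those of Pdk1, Pdk2, Ankrd37, Ndrg1, Epas1 and Car9 can show.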

Other observations

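Among the further HIF-induced genes, 2 with secreted products were chosen after their values were seen. Vegfa, the angiogenic growth factor, was at 51.7, 53.7 and 48.2 FPKM in si-circCpsf6, against 31.9, 29.7 and 17.4 FPKM in si-NC, with a log2 fold change of 0.98 ± 0.22 (limma adjusted p = 0.0754). Adm, the precursor of the vasodilator adrenomedullin, was at 0.84, 0.24 and 0.47 FPKM in si-circCpsf6, against 2.18, 3.57 and 1.86 FPKM in si-NC, with a log2 fold change of -1.21 ± 0.24 (adjusted p = 0.0558). Neither passed the test, and the signs were opposite, as they were for Ndrg1 and Ankrd37. The groups did not overlap in either gene, which was also the case in 26.9% of all tested genes. Adm averaged 0.52 FPKM in si-circCpsf6, so it reached the mean of 1 FPKM only through si-NC.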
